A study of Mus musculus with 2 samples.

Results

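The genes for the protein components of the cytosolic ribosome were examined in single retinal cells of control and Mettl3-CKO mouse pups at postnatal day 7. They were chosen by symbol, as Rpl or Rps followed by digits and optional letters, with Rplp0, Rplp1, Rplp2 and Rpsa, and without pseudogenes and the Rps6k kinases. The rule gave 82 of the 30905 genes listed, 32 for proteins of the small subunit and 50 for proteins of the large subunit. The Ctrl library was made from 2 control retinas and the Mettl3-CKO library from 2 retinas lacking Mettl3 conditionally, each pair pooled, and all pups were littermates. The knockout was made with Six3-Cre and floxed Mettl3 alleles, and Six3-Cre is active in the retinal progenitor cells (RPCs) of the embryo, which give rise to retinal neurons and Müller glia, while microglia and astrocytes enter the retina from outside. The paper reports efficient loss of Mettl3 protein in the central retina, while whole retinas were taken for these libraries. Loss of Mettl3 was not measured cell by cell, so the share of Mettl3-CKO cells that kept it is not known. Which of these alleles the control pups carried was not given, and neither was the sex of the pups. Each group held 1 library and no replicate, so every difference below is between these 2 libraries, no test was possible, and the 95% intervals cover counting error only.

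The cytosolic ribosome translates all mRNAs of the nuclear genome. Its small 40S subunit holds the decoding site and its large 60S subunit joins amino acids, and the proteins of both are needed in nearly equal numbers. Their mRNAs are among the most abundant in any growing cell, and most begin with a run of pyrimidines, the 5′ terminal oligopyrimidine (TOP) tract, through which growth signals set how strongly they are translated. Mettl3, the enzyme that writes N6-methyladenosine (m6A) on mRNA, acts on transcripts of many families.

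The level of the family was read as its share of a cell's unique molecular identifiers (UMIs, 1 for each mRNA molecule captured at its 3′ end), with mitochondrial genes left out. Of the cells analysed, 3093 Ctrl and 2585 Mettl3-CKO cells with at least 2000 UMIs were used, with a median of 5204 and 5985 UMIs. Cells were clustered without the family, and 17 of 23 clusters were named from marker lists, giving RPC-like, neurogenic RPC-like, Müller-like, rod-like, cone-like, bipolar-like, amacrine-like, astrocyte-like and microglia-like cells. The remaining 6 clusters are given by number. Mettl3 itself was at 39.4 counts per 1000000 UMIs (CPM) in Ctrl and 32.4 CPM in Mettl3-CKO, a ratio of 0.823 (0.736 to 0.920), which is a weak check because 3′ reads need not see the deleted exons. Xist, expressed in female cells, had a UMI in 0.938% of Ctrl cells and 61.7% of Mettl3-CKO cells, so the libraries also differed in this marker of sex. The libraries shared 5 cell barcodes.

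The sequences around the start of transcription were searched for the pyrimidine run that most members of this family are known to share. They are shown for members that the comparisons below turn on, as 20 bases before and 20 bases from the start on, 5′ to 3′, from RefSeq on GRCm38.p6. Capitals mark a run of at least 6 C or T on the gene's strand that reached within 5 bases of the start.
Rps27 (chr3:90213629-90213668, minus strand): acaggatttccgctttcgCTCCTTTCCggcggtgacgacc
Rps27rt (chr9:114982720-114982759, minus strand): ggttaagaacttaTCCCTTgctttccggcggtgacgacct
Rpl35 (chr2:39005112-39005151, minus strand): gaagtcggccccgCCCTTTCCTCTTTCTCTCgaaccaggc
Rpl15 (chr14:18270967-18271006, minus strand): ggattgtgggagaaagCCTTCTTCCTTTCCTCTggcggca
Rpl38 (chr11:114668560-114668599, plus strand): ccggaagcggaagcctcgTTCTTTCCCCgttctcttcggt
Rpl12 (chr2:32961692-32961731, plus strand): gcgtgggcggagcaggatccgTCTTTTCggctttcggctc
Rps12 (chr10:23787190-23787229, minus strand): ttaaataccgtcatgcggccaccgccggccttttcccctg
Rpl24 (chr16:55966255-55966294, plus strand): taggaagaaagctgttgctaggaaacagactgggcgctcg
A run of this kind was found at 32 of the 62 members with a promoter entry (51.6%), against 24.0% of all 26994 genes in the same table. The annotated start base was a C in 28.4% of the members' entries, against 16.3% of all entries. At Rps27rt the run ended before the annotated start, so an mRNA that begins there would not hold it. The windows of Rps12 and Rpl24 held no such run next to the annotated start, and Rplp1 had no entry. The Rps12 window does hold a run of C and T, but further on from the start than the 5 bases allowed. The annotated start can lie some bases from the one a cell uses. A missing run therefore says only that none reached within 5 bases of the annotated start.

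Within each library the family's level followed cell class. In cells thinned to 2000 UMIs each, so that depth was equal, the median share in the Ctrl library was 8.80% in rod-like cells, 9.20% in cone-like cells, 10.0% in bipolar-like cells, 11.1% in RPC-like cells, 13.3% in Müller-like cells, 13.5% in amacrine-like cells, 16.0% in neurogenic RPC-like cells and 19.3% in astrocyte-like cells. Photoreceptor and bipolar classes thus lay at the low end, and neurogenic RPC-like cells, progenitors about to form neurons, lay above RPC-like cells. The Mettl3-CKO library gave 9.20% in rod-like cells, 9.35% in cone-like cells, 11.5% in both bipolar-like and RPC-like cells, 13.1% in amacrine-like cells, 14.0% in Müller-like cells, 16.9% in neurogenic RPC-like cells and 17.8% in astrocyte-like cells. The quartiles of neighbouring classes overlapped, so that in Ctrl the upper quartile of RPC-like cells (13.2%) exceeded the lower quartile of Müller-like cells (11.3%).

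**Figure D1:**
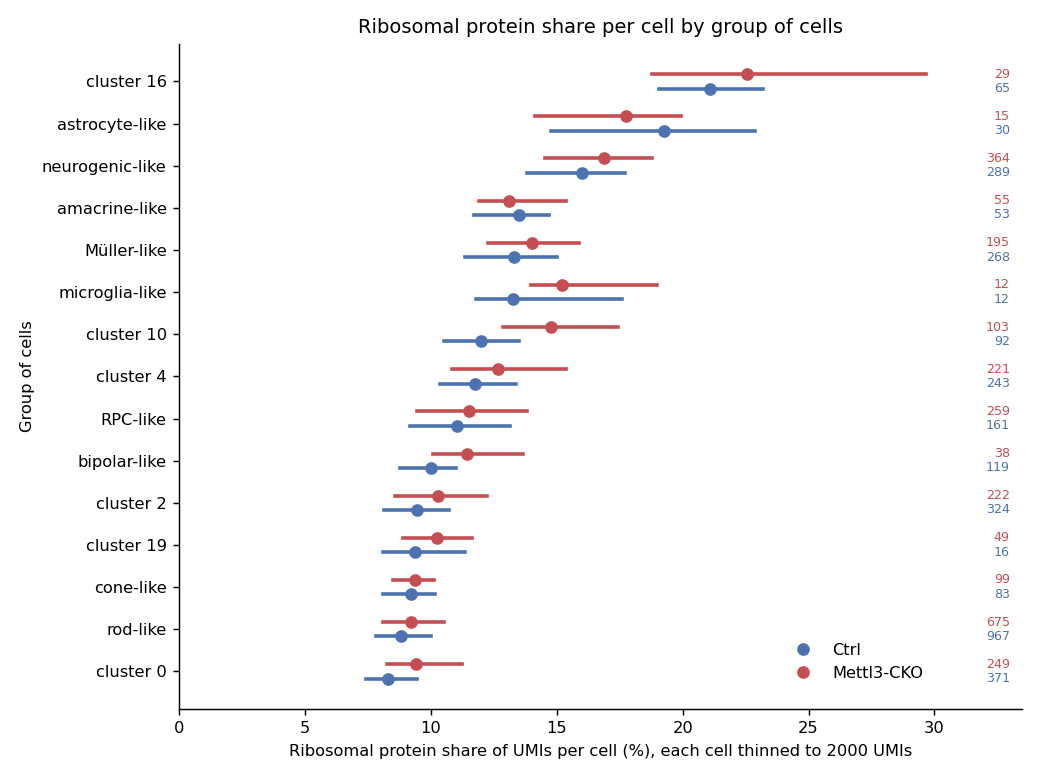
The plot shows, for each group of cells, the share of UMIs from the ribosomal protein genes per cell (%, each cell thinned to 2000 UMIs), with points for medians, lines for the quartiles and the number of cells at the right, in blue for Ctrl and red for Mettl3-CKO. The Mettl3-CKO median was the higher one in 13 of 15 groups and the lower one in amacrine-like and astrocyte-like cells.

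The differences between RPC-like, neurogenic RPC-like, Müller-like and rod-like cells were larger than those between the libraries within these classes. In Ctrl cells of equal depth, the family was 1.29 times as high in RPC-like as in rod-like cells (1.28 to 1.30) and 1.81 times as high in neurogenic RPC-like as in rod-like cells (1.80 to 1.82). In Mettl3-CKO cells the same ratios were 1.27 and 1.75. Against RPC-like cells, neurogenic RPC-like cells stood 1.36 times as high in Ctrl and 1.38 times in Mettl3-CKO, while RPC-like against Müller-like cells gave 0.829 and 0.838. All 79 members with at least 500 UMIs could be followed one by one. Rpl3l, the form of Rpl3 used in heart and skeletal muscle, had 51 UMIs in Ctrl and 43 in Mettl3-CKO, Rpl39l, a form enriched in testis, had 2 in Ctrl, and the retrogene Rpl10l had 0, so these 3 were not followed.

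Single members differed widely around these ratios. The CPM below are pooled over cells of all depths and the ratios are formed at equal depth, so a pair of CPM need not divide to its ratio. Of the 79, 48 were at least 25% higher in RPC-like than in rod-like Ctrl cells and 43 in Mettl3-CKO cells, where 31.8% and 33% of all genes with as many UMIs were. Rpl10, a late-joining 60S protein next to the site where tRNA enters, was 2.19 times as high in RPC-like as in rod-like Ctrl cells and 2.12 times in Mettl3-CKO cells. Rpsa, a 40S protein also known as the laminin receptor, gave 2.12 and 2.09, and Rplp0, the base of the ribosomal stalk, gave 2.01 and 1.86. In the other direction, Rps14, a protein of the 40S platform, was at 1373 CPM in RPC-like and 2399 CPM in rod-like Ctrl cells, a ratio at equal depth of 0.567, and at 0.592 in Mettl3-CKO. Rpl10a, at 1042 CPM in RPC-like and 1635 CPM in rod-like Ctrl cells, gave 0.664 and 0.693. Both libraries therefore showed Rps14 and Rpl10a against the direction of the family. The annotated bodies of Rps14 and Rpl10a each overlap a gene on the opposite strand (Ndst1 and CT025652.2), and use of the strand in counting was not stated, so the part of the overlapping gene in their counts was not tested.

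In neurogenic RPC-like over RPC-like cells, 57 members in Ctrl and 66 in Mettl3-CKO were at least 25% higher, where 29.1% and 26.6% of all genes were. Rpl5 (1.68 in Ctrl, 1.65 in Mettl3-CKO) and Rps14 (1.66 and 1.64) were among the highest. The members lowest in this comparison were Rps27l, a p53-induced form of Rps27, with ratios of 0.856 and 0.786, the retrogene Rpl36al with 0.897 and 0.877, and Rpl41, the shortest ribosomal protein, with 0.926 and 0.954. These class differences came from cells that clustering had placed by other genes, and the genes singled out were chosen after their values were seen. Over the 79 members, the order of the ratios in the Ctrl library went with that in the Mettl3-CKO library, with a Spearman rho of 0.910 for RPC-like over rod-like cells, 0.913 for neurogenic over RPC-like cells, 0.942 for neurogenic over rod-like cells and 0.801 for RPC-like over Müller-like cells. The cells of the 2 libraries were assigned to classes in 1 joint clustering, and the members share base composition and length, so these values are a description across genes.

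**Figure D2:**
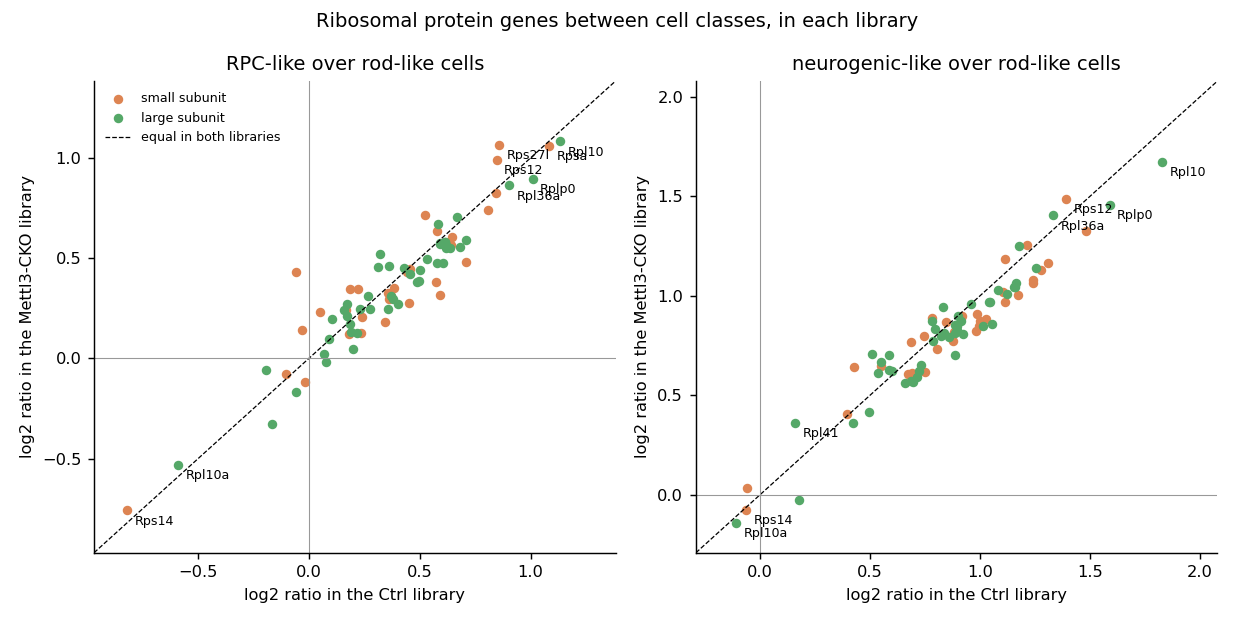
Each point is 1 of the 79 members, with the log2 ratio between the cell classes named above each panel in the Ctrl library (x axis) and in the Mettl3-CKO library (y axis), and the dashed line marks equal ratios. The points follow that line, with Rpl10 and Rplp0 far up and Rps14 and Rpl10a below 0 in RPC-like over rod-like cells.

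The main comparison asked whether loss of Mettl3 went with a change of the family. At equal depth the family stood 8.81% higher in Mettl3-CKO than in Ctrl over all cells (8.60% to 9.02%), where ratios were formed within each group of cells and within bands of UMIs per cell. By group, it stood 6.09% higher in RPC-like cells (5.49% to 6.70%), 6.99% in neurogenic RPC-like cells (6.53% to 7.47%), 5.95% in Müller-like cells (5.41% to 6.50%), 7.5% in rod-like cells (6.99% to 8.01%), 6.43% in cone-like cells (5.39% to 7.49%) and 6.0% in amacrine-like cells (4.84% to 7.17%). Bipolar-like cells differed most among the named classes, by 20.9% (19.5% to 22.4%, 119 Ctrl and 38 Mettl3-CKO cells), with a ratio of 1.19 without predicted doublets and 1.30 at clustering resolution 2. At that resolution the class was 2 clusters of unlike make-up, with 62 Ctrl and 55 Mettl3-CKO cells in one and 93 and 21 in the other. Microglia-like cells, with 12 cells in each library, differed by 3.31% (1.26% to 5.39%), with 39 of 65 members over 1 and 61.4% of all genes. All genes were 132 there and include the 65 members, so this share cannot show whether the members stood apart. Astrocyte-like cells went the other way, with a ratio of 0.924 (0.912 to 0.937, 30 and 15 cells). There 13 of 73 members were over 1 and 10 at or below 0.8, where 31.5% and 22.8% of all genes were. The median ratio was 0.891 for the members and 0.909 for all genes, which were 162 with the 73 members among them. All groups come from the same 2 libraries, so 14 higher groups of 15 are not 14 independent observations. The intervals count UMIs and leave out the spread between cells and between pups, which no replicate measured.

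Depth was matched because the family's share varied with it, in a direction that differed between groups of cells. In RPC-like cells the share was lower in deeper cells, with a Spearman rho of -0.28 over 161 Ctrl cells and -0.34 over 259 Mettl3-CKO cells. Over all cells rho was 0.30 in Ctrl and 0.18 in Mettl3-CKO, and depth and cell state cannot be told apart in these values. RPC-like cells with 5793 to 8192 UMIs gave 12.1% in Ctrl and 12.7% in Mettl3-CKO, those with 8192 to 11585 UMIs 11.1% and 11.8%, those with 11585 to 16384 UMIs 10.4% and 11%, and those with more, up to 23170 UMIs, 10.3% in both. The 3 shallower bands held 7 to 12 cells each and were irregular, with 15.9% in Ctrl and 15.3% in Mettl3-CKO in the shallowest, then 10.6% and 18.8%, then 12.2% and 14.8%. Without bands, the RPC-like ratio was 0.995, on the other side of 1, and 1 Ctrl cell decided this. That cell, with 88926 UMIs and a share of 24.8%, held 4.93% of the class's Ctrl UMIs, and without it the unbanded ratio was 1.06. No Mettl3-CKO cell lay in its band, so it carried no weight at equal depth.

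**Figure D3:**
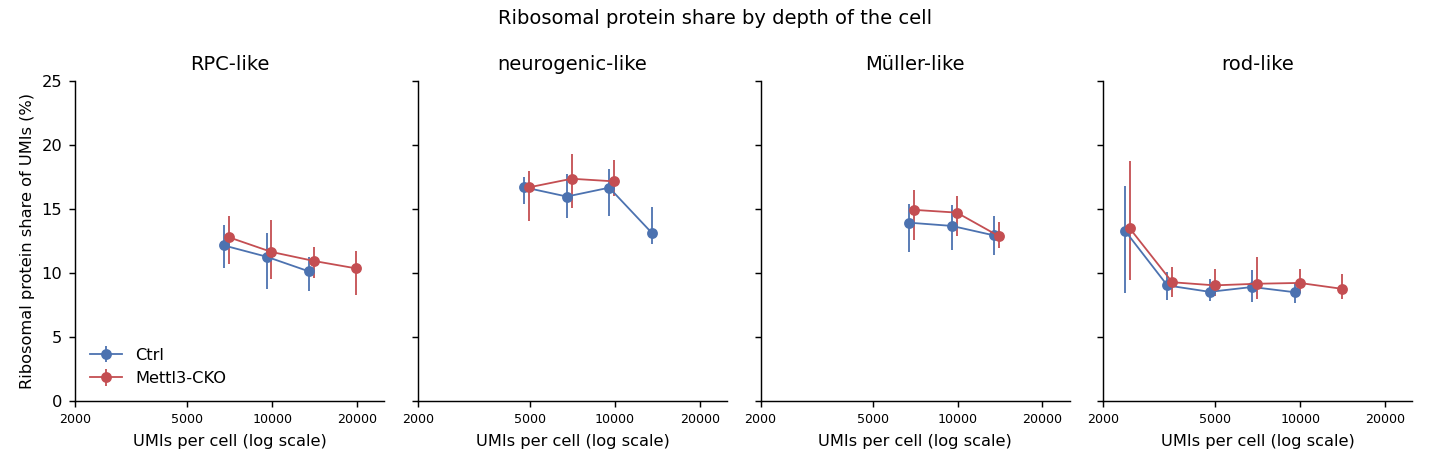
The share of UMIs from ribosomal protein genes (%, y axis) is plotted against UMIs per cell (x axis, log scale) in bands with at least 20 cells, as medians with quartile bars, for Ctrl in blue and Mettl3-CKO in red. The quartile bars of the libraries overlap in every class shown, and the RPC-like shares are lower in deeper cells.

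RPC-like cells consisted of 3 clusters with different values. Cluster 9, led by the mitotic genes Ube2c, Hmmr and Aurkb, had a median share of 9.45% in Ctrl and 9.70% in Mettl3-CKO at 2000 UMIs, with a ratio of 1.06. Cluster 14, led by the DNA replication genes Ung, Cdc6 and Mcm3, had 12.8% and 13.8%, with a ratio of 1.08. Cluster 17, led by Ccnb2, Cdc20 and Cenpa, had 13.2% and 13.5%, with a ratio of 1.0 (0.986 to 1.01). The 7 endothelial markers summed to 1176 CPM in the Ctrl and 367 CPM in the Mettl3-CKO cells of cluster 17, against 460 to 689 CPM in clusters 9 and 14. The Ctrl cell with 88926 UMIs lay in cluster 17, and without it the Ctrl sum was 306 CPM. Without cluster 17 the RPC-like ratio was 1.08. Rod-like clusters spread more widely, from 1.02 in cluster 3 to 1.16 in cluster 13.

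Gene by gene, the members moved by small amounts. Over all cells, 72 of 79 had a ratio over 1, where 48.6% of all 8773 genes with as many UMIs did, and the median ratio was 1.08 for the members and 0.997 for all genes. The members at least 25% higher were 2, Rps27rt and Rplp1, where 6.03% of all genes were, and none was at or below 0.8. Most members thus stood a little higher and few stood far apart. All 32 members of the small subunit and 40 of 47 of the large subunit were over 1, with median log2 ratios of 0.13 and 0.09.

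**Figure D4:**
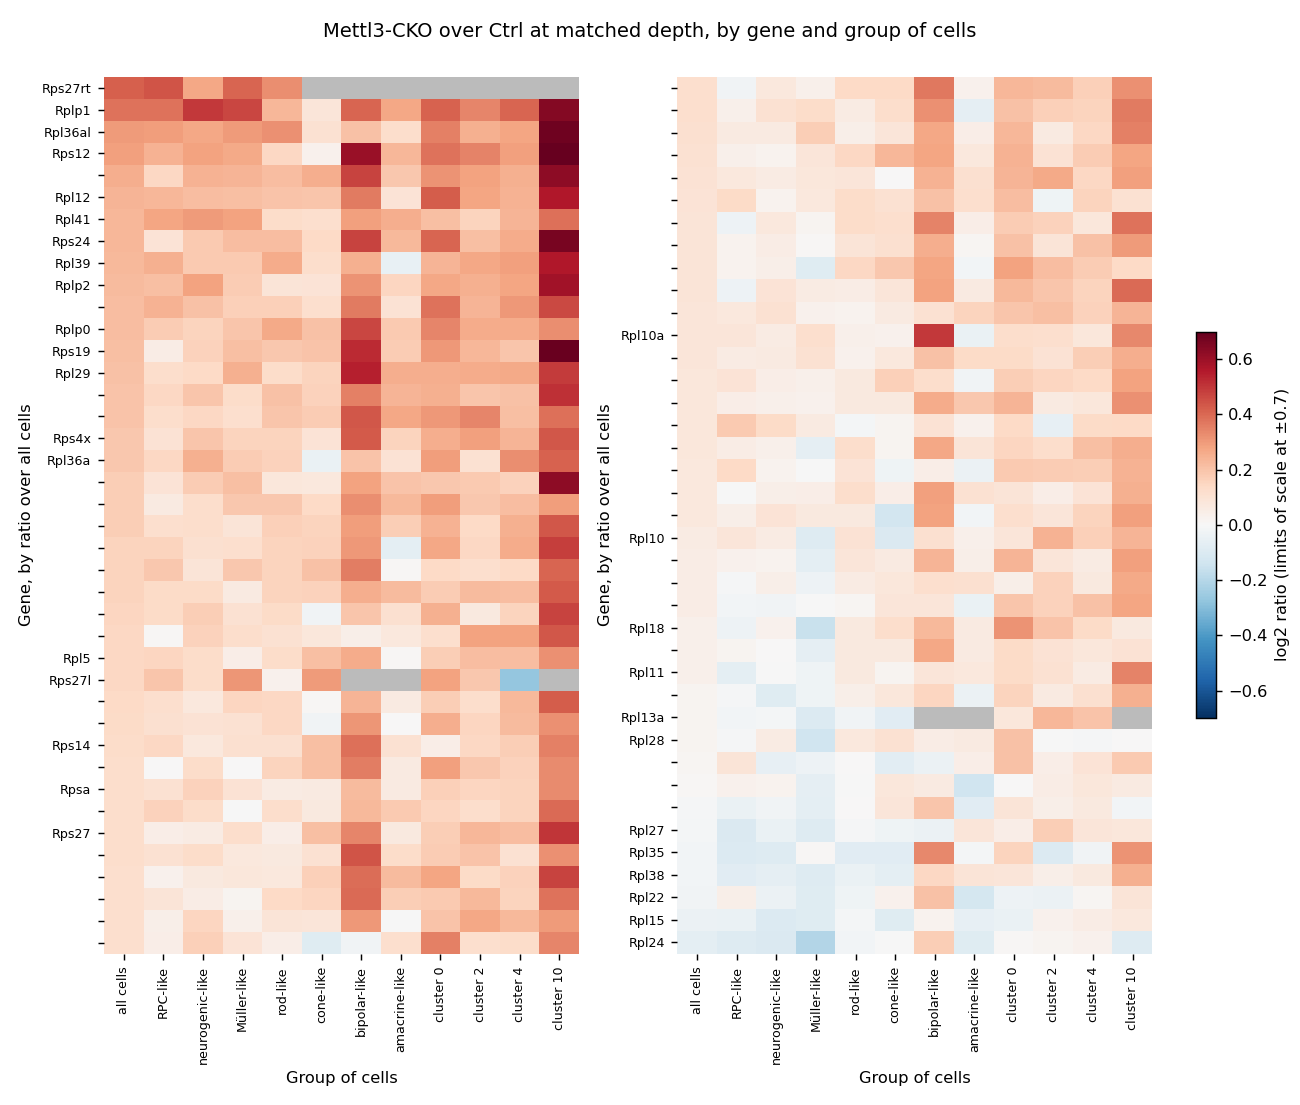
The heat map gives the log2 ratio of Mettl3-CKO over Ctrl at equal depth for each of the 79 members (lines, ordered by their ratio over all cells) in all cells and 11 groups of cells (columns), red for higher and blue for lower in Mettl3-CKO, grey where a member had under 500 UMIs, with the members named in the text labelled. Red prevails in every column and is darkest in bipolar-like cells and cluster 10, while Rpl24 and Rpl15 are pale or blue in most columns.

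In RPC-like cells 62 of 79 members were over 1 (45.4% of all genes) and 2 at least 25% higher (6.33%), in neurogenic RPC-like cells 67 of 79 were over 1 (42.9%), in Müller-like cells 57 of 79 (45.6%) with 2 at least 25% higher (8.28%), and in rod-like cells 70 of 79 (43.7%) with 1 at least 25% higher (2.75%). In cone-like cells 64 of 78 were over 1 (50.6%), in amacrine-like cells 59 of 76 (46.1%) and in bipolar-like cells 73 of 76 (47%), with 24 at least 25% higher (13.8%). All genes include the members, which were 76 of the 398 genes counted in bipolar-like cells and 76 of 332 in amacrine-like cells. The large subunit divided more evenly than the small one, with 32 of 47 against 30 of 32 over 1 in RPC-like cells and 29 of 47 against 28 of 32 in Müller-like cells. Astrocyte-like and microglia-like cells were left out of the next counts, which leaves 13 groups of cells. Of the 65 members counted in each of these 13, 26 were over 1 in all 13, among them Rplp0, Rplp1, Rplp2, Rps12, Rps19, Rps24, Rpl12 and Rpl41. Of all genes counted in each of the 13, 30.1% were over 1 in all, but these 93 genes were themselves mostly members. Rpl24 and Rpl15 were over 1 in 4 of the 13. Of the 13 groups, cluster 19 had 16 Ctrl cells, of which 13 were predicted doublets.

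The acidic stalk of the large subunit, where elongation factors dock, held the member with the highest ratio after Rps27rt. Rplp1, 1 of the 2 small stalk proteins, was at 1554 CPM in Ctrl and 1993 CPM in Mettl3-CKO over all cells, a ratio of 1.30 (1.28 to 1.32). Its ratio was 1.30 in RPC-like cells (1.24 to 1.36), 1.41 in neurogenic RPC-like cells (1.35 to 1.46), 1.38 in Müller-like cells (1.33 to 1.44) and 1.17 in rod-like cells (1.13 to 1.22). Rplp1 was therefore higher in Mettl3-CKO in each of these classes, by more than the family as a whole. Rplp2, its partner, was at 1232 and 1431 CPM, with a ratio of 1.17 over all cells and 1.16 in RPC-like cells. Rplp0, which anchors both to the 60S subunit, was at 1907 and 2189 CPM, with a ratio of 1.16 over all cells, 1.13 in RPC-like cells and 1.20 in rod-like cells.

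Of the other members with the highest ratios over all cells, Rps12, a 40S protein, was at 1510 CPM in Ctrl and 1798 CPM in Mettl3-CKO (ratio 1.22, 1.20 to 1.24). Rpl36al, the retrogene of Rpl36a, was at 369 and 440 CPM (1.23, 1.19 to 1.27) and gave 1.23 in RPC-like, 1.21 in neurogenic RPC-like and 1.23 in Müller-like cells, and was at 303 and 369 CPM in rod-like cells. In RPC-like cells Rpl41 was at 3278 and 3560 CPM, with a ratio at equal depth of 1.21. In rod-like cells Rpl39, which lines the tunnel through which the new chain leaves, was at 1211 and 1446 CPM (1.20). Rpsa was at 1578 and 1712 CPM over all cells (1.09), close to the median member.

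Rps27rt had the highest ratio over all cells and in RPC-like cells, and it is also the least certain. It was at 111 CPM in Ctrl and 146 CPM in Mettl3-CKO over all cells (1.33, 1.26 to 1.41) and at 96.9 and 128 CPM in RPC-like cells (1.36, 1.13 to 1.63), and at 123 and 164 CPM in Müller-like cells (1.33). It was also the member at least 25% higher in rod-like cells, at 97.9 and 116 CPM. Over 341 aligned bases its annotated transcript is identical to that of Rps27, so reads from either could not be assigned by these bases. Rps27 was at 1611 and 1745 CPM over all cells, with a ratio of 1.09. In RPC-like cells thinned to 2000 UMIs, the Rps27rt ratio was 0.932, on the other side of 1. Before thinning Rps27rt had 175 UMIs in Ctrl and 376 in Mettl3-CKO RPC-like cells, and thinning left fewer. That value has no interval here, so a change of direction cannot be read from it. Rps27l, whose transcript is 76.4% identical to Rps27 over 254 aligned bases and can be told from it, was at 341 and 380 CPM over all cells (1.1), at 470 and 587 CPM in Müller-like cells (1.24, 1.14 to 1.34, but 1.08, 0.972 to 1.19, without the subcluster described below) and at 271 and 226 CPM in cluster 4 (0.829, 0.712 to 0.964).

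The lowest ratios belonged to large-subunit members, none at or below 0.8 over all cells. Rpl24, which forms a bridge to the small subunit, was at 1376 CPM in Ctrl and 1292 CPM in Mettl3-CKO over all cells (0.955, 0.938 to 0.973). Its ratio was 0.940 in RPC-like cells (0.891 to 0.992) and 0.867 in Müller-like cells (0.823 to 0.912). Rpl15, at 1713 and 1635 CPM, gave 0.973 over all cells (0.957 to 0.989), and Rpl22, at 891 and 859 CPM, and Rpl38, at 1594 and 1539 CPM, gave 0.981 and 0.987. The intervals of Rpl22 and Rpl38 reach 1.0, so counting error alone does not separate their libraries. The annotated body of Rpl24 overlaps Gm28037 on the same strand, so its counts could include or lose reads of that gene. In RPC-like cells the lowest were Rpl27 (964 and 873 CPM, 0.933), Rpl35 (1046 and 901 CPM, 0.937), Rpl24 and Rpl38 (1760 and 1501 CPM, 0.945). In rod-like cells Rpl35 (696 and 655 CPM) was lowest with 0.947, followed by Rpl38 (1171 and 1108 CPM) with 0.968, Rpl22 (717 and 689 CPM) with 0.979 and Rpl13a with 0.984. In Müller-like cells Rpl24 was followed by Rpl18 (1453 and 1323 CPM, 0.899), Rpl28 (1792 and 1630 CPM, 0.910) and Rpl13a (257 and 241 CPM, 0.936). Without the Mettl3-CKO-only subcluster described below, Rpl24 gave 0.929 (0.875 to 0.986), Rpl18 0.984 (0.927 to 1.04) and Rpl28 0.959 (0.909 to 1.01), so that the last pair then reached 1.

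Rpl5 and Rpl11 form, with 5S rRNA, the particle that binds Mdm2 and so restrains the breakdown of p53 when ribosome assembly is disturbed. Rpl5 was at 1038 CPM in Ctrl and 1127 CPM in Mettl3-CKO over all cells (1.1), and Rpl11 at 1562 and 1570 CPM (1.02). In RPC-like cells Rpl5 was at 858 and 918 CPM (1.11), and Rpl11 was at 1633 and 1453 CPM, with a ratio at equal depth of 0.952. Rpl5 lay above and Rpl11 below the family's ratio in both.

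The 4 X-linked members were looked at because the libraries differed in Xist. Over all cells Rpl10 was at 896 CPM in Ctrl and 922 CPM in Mettl3-CKO (1.04), Rps4x at 1500 and 1670 CPM (1.14), Rpl36a at 717 and 811 CPM (1.14) and Rpl39 at 1769 and 2052 CPM (1.17). Their median log2 ratio was 0.19 and that of the autosomal members 0.12. Among cells of at least 4000 UMIs, with Mettl3-CKO cells that had a UMI of Xist left out, the 4 ratios were 1.04, 1.12, 1.13 and 1.18. A cell without a UMI of Xist can still be female, so the part of sex in these values was not tested beyond this.

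Several measures moved with genotype beside the family. The share of mitochondrial UMIs was lower in Mettl3-CKO in 15 of 15 groups, from 3.72% to 7.44% in Ctrl and from 3.19% to 6.46% in Mettl3-CKO. Rod marker genes, which reach other cells as free RNA, took 0.0106% to 2.76% of UMIs in Ctrl and 0.00607% to 2.44% in Mettl3-CKO and were lower in Mettl3-CKO in 7 groups and higher in 8. Genes of the response to dissociation were lower in Mettl3-CKO in 11 of 15 groups. The part of these measures and of the sex of the pups in the family's ratio was not tested.

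The unnamed clusters showed the family further apart than most named classes. Cluster 10, led by Cntnap5a, Tacr3 and Rimkla (92 Ctrl and 103 Mettl3-CKO cells), had a median share of 12% in Ctrl and 14.8% in Mettl3-CKO at 2000 UMIs and stood 27.2% higher at equal depth (26.1% to 28.3%). There 74 of 76 members were over 1 (44.9% of all genes) and 39 at least 25% higher (17.1%). The 445 genes counted there include the 76 members. Rps12 was at 1478 CPM in Ctrl and 2430 CPM in Mettl3-CKO (1.63), Rps19, mutated in Diamond-Blackfan anaemia, at 1305 and 2155 CPM (1.61) and Rps24 at 2368 and 3773 CPM (1.59). Rplp1 was at 1445 and 2196 CPM (1.56). In bipolar-like cells some of the same members led, with Rps12 at 1169 and 1793 CPM (1.52), Rpl29 at 1176 and 1733 CPM (1.46), Rps19 at 1165 and 1698 CPM (1.44) and Rpl10a at 878 and 1230 CPM (1.41). These members were named after their values were seen.

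Clusters 0 and 2 were both led by Pcp2, a gene of bipolar cells. Their nearest marker list was that of rod and bipolar precursors, and neither met the rule for a name. Rod marker genes took 1.18% of Ctrl UMIs in cluster 0 and 0.306% in cluster 2, against 0.214% in bipolar-like and 2.76% in rod-like cells. Clusters 0 and 2 stood 15.1% and 11.4% higher in Mettl3-CKO, with 76 of 78 (45.3% of all genes) and 73 of 78 members over 1 (43.9%). Cluster 4, led by Angpt1, Fabp7 and Neurod4, stood 12.4% higher, with 75 of 78 members over 1 (41.3%). The share of cells with a UMI of Xist and the mitochondrial share differed in these clusters as in the rest. A difference in the make-up of a cluster and a difference within its cells cannot be told apart here.

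Müller-like cells of the Mettl3-CKO library held a subcluster of 87 cells that had 1 cell in Ctrl, found by clustering without the family. The family's share was 14.6% in these cells, 13.7% in the remaining 108 Mettl3-CKO cells of this class and 13.3% in the 267 other Ctrl cells, with medians of 8643, 9625 and 9669 UMIs per cell. At equal depth the family in the subcluster was 1.07 times as high as in the other Mettl3-CKO cells (1.07 to 1.08), and these others were 1.03 times as high as Ctrl (1.02 to 1.03). Of the 77 members counted, 47 were over 1 in the subcluster over the other Mettl3-CKO cells, where 37.5% of all genes were, and 8 were at least 25% higher and 2 at or below 0.8, where 12.9% and 22.5% of all genes were. Rplp1 was at 2234 CPM in the other Mettl3-CKO cells and 3489 CPM in the subcluster (1.57, 1.49 to 1.66), Rps12 at 2264 and 3234 CPM (1.45) and Rps27l at 502 and 700 CPM (1.39). Rpl18, at 1446 and 1161 CPM (0.791), was lower in it. Cdkn1a and Phlda3, both induced by p53, were at 542 and 167 CPM in the subcluster and at 34.8 and 22.6 CPM in the other Mettl3-CKO cells. Without the subcluster, Rplp1 in Müller-like cells had a ratio of 1.11 instead of 1.38, and the family stood at 1.03.

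**Figure D5:**
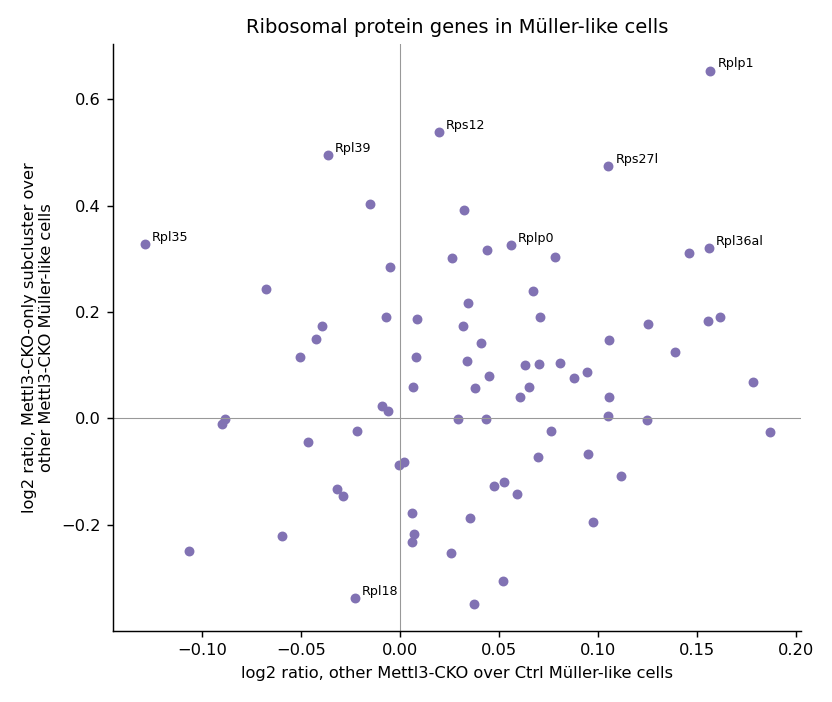
Each point is 1 member, with the log2 ratio of the other Mettl3-CKO over Ctrl Müller-like cells on the x axis and of the Mettl3-CKO-only subcluster over the remaining Mettl3-CKO cells on the y axis. Rplp1, Rps12 and Rps27l lie high on the y axis and Rpl18 low, while the spread along the x axis is smaller.

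The members were also compared by features that the rule did not use. Members with a pyrimidine run near the annotated start had a median log2 ratio over all cells of 0.12 (31 members), and so did those without (28 members). Across the 79 members the log2 ratio ran against annotated transcript length, with a Spearman rho of -0.23 over all cells and -0.08 in rod-like cells, and medians of 0.15 for the 20 members of at most 500 bases and 0.11 for the 17 of at least 1000. With coding length rho was -0.30 over all cells, -0.34 in Müller-like cells and -0.41 over the 76 members counted in cluster 10. In Müller-like cells the medians were 0.17 for the members of at most 500 bases and 0.05 for those of at least 1000. Over the 8531 other genes rho was 0.10. Members share their short length and high expression, so these are descriptions across genes. Of the 82 members, 47 overlap another annotated gene and 34 do so on the same strand, and the pseudogenes left out by the rule held 1268 UMIs in Ctrl and 1622 in Mettl3-CKO in all.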

How the data were processed

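Whole retinas were digested with papain, and droplet libraries of the 3′ ends of transcripts were made with the 10x Genomics V3.1 kit. Per the labels and methods, the authors trimmed reads with fastp and aligned and counted them with Cell Ranger 3.1.0 on mm10, and the deposited values are raw UMI counts. The matrices hold fewer entries than their size lines state, and cells with all their entries numbered 3994 of 5995 barcodes in Ctrl and 3109 of 6992 in Mettl3-CKO (20955138 and 19957693 UMIs without mitochondrial genes), and the others were not analysed here. Cells under 2000 UMIs (901 and 524) were left out. The study's filter (over 200 genes, under 20% mitochondrial UMIs), not met by 237 and 86 cells, and the removal of 60 and 8 predicted doublets were alternatives.

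Cells were clustered on 10 principal components of 2000 variable genes, without the family, by the Leiden algorithm (leidenalg 0.10.2, scanpy 1.11.5, Python 3.11.15). A name needed at least 3 markers of 1 of 14 lists each 1.5-fold above the remaining cells and with a UMI in 20% of the cluster's cells, and no cluster could be called precursor-like. Ratios at equal depth are Mantel-Haenszel ratios of summed UMIs over bands of UMIs per cell 0.5 log2 units wide, and over groups for all cells. They were also formed on counts simulated with known folds and counting error only, without spread between cells or pups. Such counts cannot show how well the intervals hold for these data. Genes counted had at least 500 UMIs in the cells compared, and shares of all genes include the members. Higher meant at least 25% higher and lower at least 20% lower. Positions follow GENCODE vM21 on GRCm38. The members, lists and comparisons were chosen with earlier results of these data known. Named with values were the 4 highest and 4 lowest members in RPC-like, Müller-like and rod-like cells and over all cells, the stalk, 5S and X-linked members, Rpsa, close copies, Fau and Rack1, and others as the text says. Some genes that the rule gives are not reported here.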

Additional observations from a re-analysis of the deposited data

Results flagged for a closer look

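The family's ratio in astrocyte-like cells was 0.924 (0.912 to 0.937), lower in Mettl3-CKO, while the ratio was 1.03 to 1.27 in the other 14 groups of cells. It rests on 30 Ctrl and 15 Mettl3-CKO cells, among which 13 of 73 members were over 1 and 10 were at or below 0.8. Of all 162 genes counted there, the 73 members among them, 31.5% were over 1 and 22.8% at or below 0.8. Their median ratio was 0.909 against 0.891 for the members. Rpl24 was at 2208 CPM in Ctrl and 1553 CPM in Mettl3-CKO astrocyte-like cells (0.719, 0.626 to 0.826), whereas Rplp1 was at 3286 and 3789 CPM (1.21, 1.1 to 1.33). The difference between these groups of cells was not tested, since each library was a single pool. The astrocyte-like cluster was led by Rgs5, a gene on the list of pericyte markers. S100b, Pdgfra and Gfap of the astrocyte list were also among its leading genes. A difference in the make-up of this cluster and a difference within its cells cannot be told apart.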

How the results depend on the processing

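The higher level of the family in Mettl3-CKO kept its direction over all cells and in Müller-like and rod-like cells under every alternative, and in RPC-like cells under all but one. Values moved past the counting interval as follows, for all cells, RPC-like, Müller-like and rod-like cells where each did. Without depth bands the ratios were 1.07 over all cells, 0.995 in RPC-like cells (the other direction, from 1 cell) and 1.06 in rod-like cells. All cells without that cell gave 1.08. Both values over all cells were formed without matching groups of cells either. Neurogenic RPC-like cells were 9.34% of Ctrl and 14.1% of Mettl3-CKO cells, so make-up and depth cannot be told apart in these 2 values. Thinning gave 1.12, 1.05 and, in Müller-like cells, 1.07. Wide bands gave 1.09, 1.07 (Müller-like) and 1.08 (rod-like). Median-of-ratios scaling gave 1.09, 1.08, 1.08 and 1.09, and a denominator without the members 1.1, 1.07, 1.07 and 1.08. The mean of per-cell CPM gave 1.12 and, in Müller-like cells, 1.08. Naming cells by their own markers gave 1.09, 1.07, 1.07 and 1.05. Keeping cells of at least 4000 UMIs gave 1.05 in RPC-like cells, and this limit together with leaving out Mettl3-CKO cells with a UMI of Xist gave 1.08, 1.04, 1.05 and 1.13. Keeping members in the clustering gave 1.09 over all cells and 1.06 in rod-like cells, and keeping shallow cells gave 1.08, 1.04 and, in rod-like cells, 1.03. Without predicted doublets the ratio was 1.05 in Müller-like and 1.09 in rod-like cells. Resolution 2 gave 1.05 and the study's filter 1.08 in rod-like cells. Without the Mettl3-CKO-only subcluster all cells gave 1.09 and Müller-like cells 1.03, and without cluster 17 RPC-like cells gave 1.08.

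Members at least 25% higher over all cells numbered 4 on thinning. In RPC-like cells they numbered 1 without bands and 0 with shallow cells or with the limit of 4000 UMIs and no Xist. In Müller-like cells they numbered 4 with median-of-ratios scaling or shallow cells, 5 with per-cell CPM and 0 without the subcluster. In rod-like cells they numbered 0 without bands, at resolution 2, with own markers or with members in the clustering, 2 with median-of-ratios scaling, a denominator without members or the study's filter, and 5 with the limit of 4000 UMIs and no Xist. Of all genes, 5.0% to 8.62% over all cells, 3.35% to 7.31% in RPC-like, 4.42% to 10.2% in Müller-like and 1.85% to 3.75% in rod-like cells were at least 25% higher under the alternatives other than folds. At a fold of 1.1 they were 29, 20, 22 (with 2 lower) and 27, where 20.6%, 20.4%, 24.6% and 16.3% of all genes were (30.8% lower in Müller-like cells), and at 1.5 they were 0 (1.27%, 1.64%, 2.07% and 0.336% of all genes). In single values, the Rps27rt ratio in RPC-like cells was 0.932 on thinning, from few UMIs. The family ratio of cluster 16 was 0.716 in its 11 Ctrl and 3 Mettl3-CKO cells of at least 4000 UMIs, with no member counted. The difference of the median share in amacrine-like cells was 0.0375 percentage points unthinned, against thinned medians of 13.5% in Ctrl and 13.1% in Mettl3-CKO. Their causes were not tested. Of 1575 ratios of named members under alternatives, 1434 stayed within the counting interval and 140 moved past it. The settings on shallow cells, 4000 UMIs with Xist, the deepest cell, the subcluster and cluster 17 were chosen after seeing the data. The alternatives for precursor-like cells were not run. No paired analysis was possible because each group held 1 library. Depth limits the members under 500 UMIs in a class, and the lack of replicates limits all else.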

Other observations

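Other genes of protein synthesis were set beside the family over all cells. Of the 7 listed elongation factors, which bring tRNAs to the ribosome and move it along, 6 were counted and 5 had a ratio over 1, with a median log2 ratio of 0.16 and none at least 25% higher. Eef1a1 was at 4145 CPM in Ctrl and 4931 CPM in Mettl3-CKO (1.20), and Eef1g and Eef1b2 gave 1.18 and 1.13, while Eef1e1 gave 0.897. In RPC-like cells 5 of 5 counted elongation factors were over 1, with a median log2 ratio of 0.26. The 30 initiation factors, which load mRNA onto the small subunit, gave 12 over 1 and a median log2 ratio of -0.05 over all cells, 6 of 25 over 1 in RPC-like cells and 8 of 23 in Müller-like cells. Of 35 counted genes of ribosome assembly 25 were over 1, with a median log2 ratio of 0.06, 3 at least 25% higher and none at or below 0.8. Of 77 counted genes for mitochondrial ribosomal proteins 50 were over 1, with a median log2 ratio of 0.08 and 10 at least 25% higher. Of the 9 counted p53 targets 7 were over 1 and 4 were at least 25% higher, and in Müller-like cells 3 of 3 were. The members' share over 1 over all cells (72 of 79) can be read beside these. Of all genes, 48.6% were over 1 and 6.03% at least 25% higher over all cells. In RPC-like cells 45.4% of all genes were over 1. In Müller-like cells 45.6% were over 1 and 8.28% at least 25% higher.

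Ribosomal proteins whose names fall outside the rule lay near or below the family. Fau, whose product yields a 40S protein, was at 1703 CPM in Ctrl and 1683 CPM in Mettl3-CKO (1.0), Rack1, a scaffold on the 40S subunit, at 870 and 908 CPM (1.05), and Rps3a1 at 1688 and 1705 CPM (1.02). Across 25 combinations of group and library with at least 30 cells, the 5 genes outside the family whose log2 CPM went most closely with that of the family were Fau (Pearson r 0.964), Rps3a1 (0.958), Rack1 (0.925), Eef1b2 (0.924) and Naca (0.906), among 8694 genes. The points share libraries and depth, so this is a description. Cluster 16, led by Cryab, Crym and Rlbp1 (65 Ctrl and 29 Mettl3-CKO cells), had the highest median share at 2000 UMIs, 21.1% in Ctrl and 22.6% in Mettl3-CKO, at median depths of 2713 and 2907 UMIs.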
